A study of Mus musculus with 8 samples.

Results

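The genes described here encode the aminoacyl-tRNA synthetases of the cytosol and of mitochondria, measured in hearts of mice with and without HDAC3, an enzyme that removes acetyl groups from histones as part of nuclear receptor corepressor complexes. A list of 36 symbols was used, 16 ending in 2 for the mitochondrial enzymes and 20 for the others. The rule picks genes by symbol, not by expression value, but they were listed with earlier results of these data known. Of these, 34 had a transcript cluster (the array's gene-level probe set) annotated to 1 gene, and all 34 were among the 14950 genes tested. The methionyl gene of the cytosol, Mars, was found under its current symbol Mars1. The cluster of Aars is annotated to Exosc6 as well, so no value is given for it, and Dars was not analysed here.

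The tested hearts came from 4 HDAC3-deficient mice (KO) and the comparison hearts from 4 wild type mice (WT). All 8 were C57BL/6 males aged 6 weeks, fed normal chow, with 1 Affymetrix Mouse Gene 1.0 ST array per heart. The series text spells the knockout MCH3-KO, and nothing in the labels gives the promoter or the cell type behind the deletion. Hdac3 itself was at 34.4% of the WT level in KO hearts (log2 difference -1.54, SE 0.05, limma adjusted p = 9.19e-08), and every array matched its label. Array medians lay between 54.1 and 56.5, no 2 arrays held identical values, and 10 of 10 cardiomyocyte markers passed the filter on dim genes.

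Aminoacyl-tRNA synthetases join each amino acid to its own tRNA, the step that sets the meaning of the genetic code, and they fall into a pair of unrelated structural classes, I and II. Most amino acids have a cytosolic enzyme and a separate mitochondrial enzyme, both encoded in the nucleus, while the glycyl (Gars) and lysyl (Kars) genes supply both compartments. In mammalian cells, amino acid shortage and other stresses raise translation of the transcription factor ATF4 (the integrated stress response), and many cytosolic synthetase genes are among its known targets. ATF4 and C/EBP proteins bind a composite element, the C/EBP-ATF response element, whose core is often written TGATGNAA. The heart depends on mitochondrial protein synthesis for its respiratory chain, and inherited defects of several mitochondrial synthetases cause cardiomyopathy in humans.

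The promoters of 6 cytosolic synthetase genes are shown because they differ in this core. Each line gives 100 bases, 80 before the start site and 20 from it on, 5′ to 3′ on the gene's own strand, from RefSeq (GRCm38.p6). Capitals mark the 8 letters TGATGNAA or their reverse complement.
Gars (chr6:55037921-55038020, plus strand): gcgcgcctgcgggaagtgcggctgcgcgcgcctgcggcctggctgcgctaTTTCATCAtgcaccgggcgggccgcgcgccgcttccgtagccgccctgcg
Yars (chr4:129189823-129189922, plus strand): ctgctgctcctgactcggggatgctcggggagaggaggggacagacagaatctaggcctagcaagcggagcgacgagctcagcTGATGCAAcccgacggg
Iars (chr13:49682050-49682149, plus strand): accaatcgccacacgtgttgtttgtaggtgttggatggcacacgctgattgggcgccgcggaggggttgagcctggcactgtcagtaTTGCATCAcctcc
Tars (chr15:11399639-11399738, minus strand): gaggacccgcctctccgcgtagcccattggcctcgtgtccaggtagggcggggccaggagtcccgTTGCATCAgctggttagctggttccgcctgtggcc
Sars (chr3:108445240-108445339, minus strand): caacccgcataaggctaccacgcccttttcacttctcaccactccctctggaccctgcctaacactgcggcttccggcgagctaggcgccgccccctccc
Mars1 (chr10:127311767-127311866, minus strand): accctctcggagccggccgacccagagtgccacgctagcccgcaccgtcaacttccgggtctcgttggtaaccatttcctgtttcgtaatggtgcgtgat

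The search covered both strands of the RefSeq windows of 250 bases before and 50 after the start site, with no other motif searched. Of 36 synthetases, 27 had a window, 14 mitochondrial and 13 cytosolic. The core was in 0 of 14 mitochondrial and 5 of 13 cytosolic windows, those of Gars, Yars, Iars, Tars and the unmeasured Aars. Over all genes with a window it was found in 4.51% (1219 of 27025). Counted from 1 at the first transcribed base and from -1 just before it, the core begins at position -30 in Gars, -15 in Tars, 4 in Yars and 8 in Iars. A match describes letters in a window and is no evidence of binding.

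Among the 34 measured synthetases, 4 mitochondrial genes fell and 7 cytosolic genes rose in KO hearts. The test was limma with Benjamini-Hochberg adjustment over all 14950 genes and a threshold of 0.05. Of 16 mitochondrial genes, Nars2, Cars2, Vars2 and Wars2 fell and 0 rose. Of 18 listed cytosolic genes, Mars, Cars, Nars, Gars, Yars, Sars and Iars rose and 0 fell. Tarsl2, a second threonyl enzyme found outside mitochondria, is not on the list and fell (log2 difference -0.55, adjusted p = 0.000278). At an unadjusted p under 0.05 in limma, 1 mitochondrial gene, Pars2, was higher and 0 listed cytosolic genes were lower. Over all genes tested, 24.6% were called, 10.8% higher and 13.9% lower in KO hearts. The shares among the synthetases were 25% of mitochondrial genes lower and 38.9% of cytosolic genes higher. Counted in either direction, the called share was 25% of mitochondrial genes, near the 24.6% of all genes, and 38.9% of cytosolic genes. Every KO heart lay below every WT heart in 5 mitochondrial genes (16.8% of all genes) and above in 7 cytosolic genes (11.7% of all genes), and 28.6% of all genes were separate in one direction or the other. The rises reached at most 1.35-fold. All differences below are KO minus WT on the log2 intensity scale with n = 4 hearts a group. Precision is limited by the number of arrays.

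**Figure D1:**
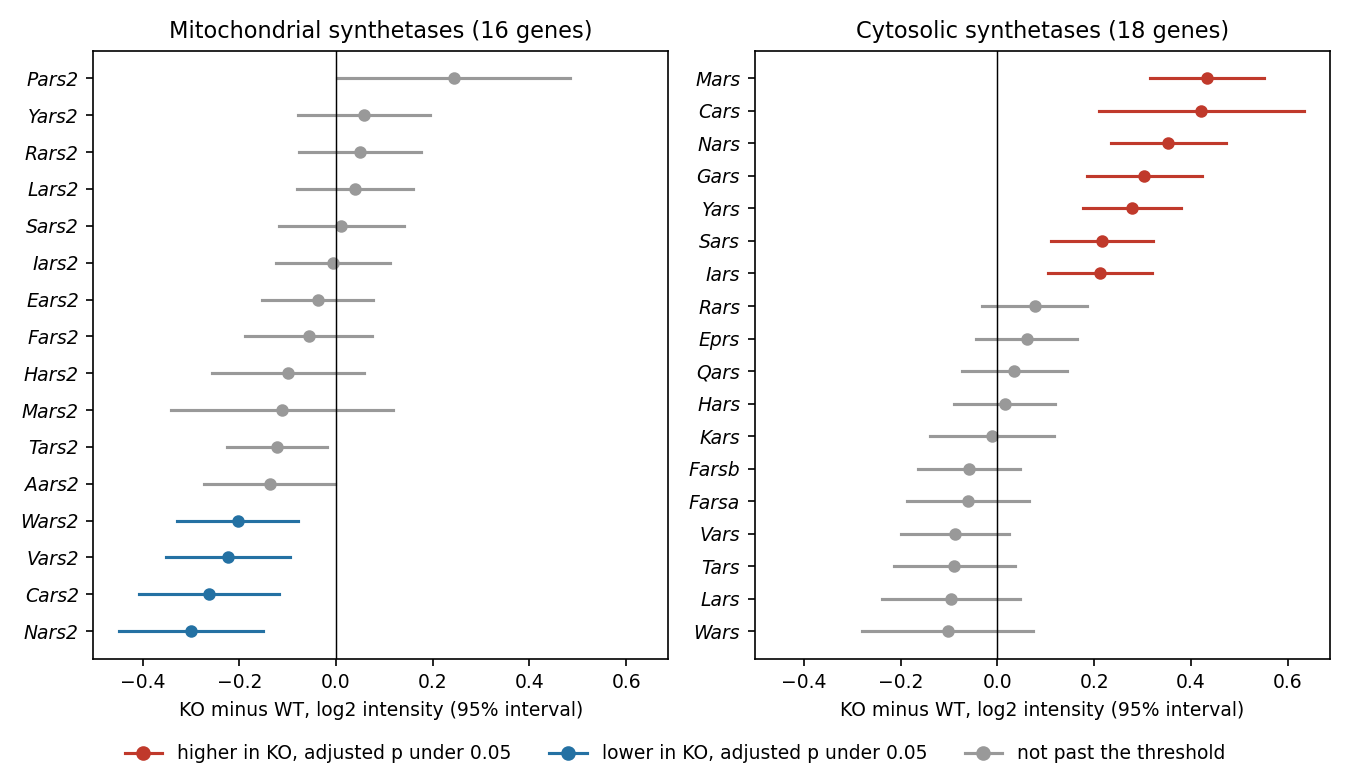
KO minus WT difference in log2 intensity for each measured synthetase gene (point) with its 95% interval from limma (line), mitochondrial genes on the left and cytosolic genes on the right. The 4 mitochondrial genes past the threshold lie between -0.30 and -0.20, and the 7 cytosolic ones between 0.21 and 0.43.

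Mars, the methionyl enzyme that charges both initiator and elongator tRNA, rose by about as much as Cars, and these were the largest rises among the synthetases in the fit to all 8 hearts. The log2 levels of Mars were 8.15, 8.25, 8.08 and 8.22 in KO hearts, against 7.80, 7.73, 7.71 and 7.72 in WT hearts. Every KO heart was above every WT heart, and the WT hearts lay close together. The difference was 0.43 (SE 0.05, adjusted p = 0.000234), or 1.35-fold.

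Cars, the cysteinyl enzyme, had 7.51, 7.55, 7.48 and 7.63 in KO hearts, against 7.03, 7.15, 6.90 and 7.40 in WT hearts. It was the most variable of the risers in WT (SD 0.21), with WT replicate 4 near the KO hearts but below all of them. The difference was 0.42 (SE 0.10, adjusted p = 0.00877). Without WT replicate 4 it was 0.52 (adjusted p = 0.000949), above the 0.43 of Mars in that fit, and without WT replicate 3, the lowest, it was 0.35 (adjusted p = 0.0192).

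Nars, the asparaginyl enzyme, had 9.40, 9.45, 9.31 and 9.27 in KO hearts, against 9.03, 8.96, 9.01 and 9.02 in WT hearts. The groups did not overlap, and Nars rose by 0.35 (SE 0.05, adjusted p = 0.000874). Asns, which makes the amino acid that Nars uses, rose by 1.28 (SE 0.11, adjusted p = 2.69e-05) in the same hearts.

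Gars, which supplies glycyl-tRNA to cytosol and mitochondria alike, had 8.71, 8.81, 8.70 and 8.69 in KO hearts, against 8.44, 8.50, 8.43 and 8.33 in WT hearts. All KO hearts were above all WT hearts, by a mean of 0.30 (SE 0.05, adjusted p = 0.00225). Kars, the other enzyme that serves both compartments, differed by -0.01 (95% interval -0.14 to 0.12), and by 0.01 after quantile normalisation.

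Yars, the tyrosyl enzyme, was tightly grouped, with 7.73, 7.71, 7.76 and 7.79 in KO hearts and 7.42, 7.51, 7.45 and 7.49 in WT hearts. It rose by 0.28 (SE 0.05, adjusted p = 0.00145). Sars, the seryl enzyme, which also charges the tRNA for selenocysteine, had 8.68, 8.77, 8.78 and 8.70 in KO hearts, against 8.48, 8.53, 8.56 and 8.50 in WT hearts. Neither gene overlapped between the groups, and Sars rose by 0.22 (SE 0.05, adjusted p = 0.00768).

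Iars, the isoleucyl enzyme, is read by a pair of clusters. The brighter one had 10.34, 10.37, 10.38 and 10.28 in KO hearts, against 10.11, 10.08, 10.14 and 10.19 in WT hearts, a rise of 0.21 (SE 0.05, adjusted p = 0.00939). The dimmer one had 9.57, 9.66, 9.54 and 9.59 in KO hearts and 9.39, 9.32, 9.28 and 9.44 in WT hearts. In a fit over all 21631 single-gene clusters it differed by 0.24 (SE 0.06, adjusted p = 0.0143), so both clusters moved the same way.

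**Figure D2:**
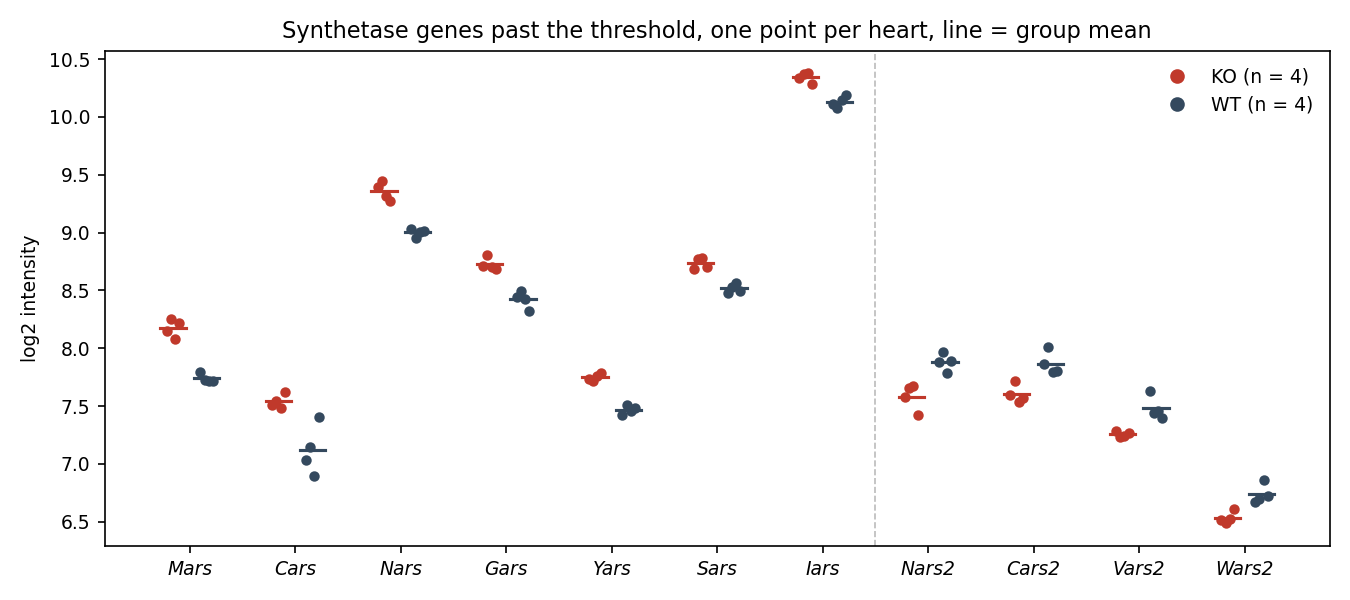
Log2 intensity of the 11 synthetase genes past the threshold in each heart, KO points to the left of WT points, with the group mean as a line. In all 11 genes the 4 KO hearts lie on one side of the 4 WT hearts, above for the 7 cytosolic genes on the left and below for the 4 mitochondrial genes on the right.

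The other 11 cytosolic synthetases did not pass the threshold, and their differences ran from -0.10 to 0.08. The bifunctional glutamyl-prolyl gene Eprs (0.06, interval -0.04 to 0.17) and the arginyl gene Rars (0.08, interval -0.03 to 0.18) leaned upward. The tryptophanyl gene Wars (-0.10, interval -0.28 to 0.07), the leucyl gene Lars (-0.10), the threonyl gene Tars (-0.09) and the valyl gene Vars (-0.09, interval -0.20 to 0.02) leaned downward. The intervals leave room for small changes in either direction. Farsa and Farsb, the subunits of one phenylalanyl enzyme, both differed by -0.06. Qars (glutaminyl, 0.04) and Hars (histidyl, 0.01) lay near 0, and Hars was at -0.01 after subtraction of each array's median. For all 11 genes the KO and WT hearts overlapped.

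Among the mitochondrial enzymes, Nars2 (asparaginyl) and Cars2 (cysteinyl) fell by similar amounts. The levels of Nars2 were 7.58, 7.66, 7.67 and 7.42 in KO hearts, against 7.88, 7.96, 7.79 and 7.89 in WT hearts. No KO heart reached the lowest WT heart, and Nars2 fell to 81.2% of WT (log2 difference -0.30, SE 0.07, adjusted p = 0.008). Cars2 had 7.60, 7.72, 7.53 and 7.57 in KO hearts, against 7.86, 8.01, 7.79 and 7.80 in WT hearts. Its groups were separate, with a difference of -0.26 (SE 0.06, adjusted p = 0.0137).

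Vars2, the mitochondrial valyl enzyme, had 7.28, 7.23, 7.24 and 7.27 in KO hearts, against 7.63, 7.44, 7.45 and 7.40 in WT hearts. The KO hearts lay close together (SD 0.03) and below all WT hearts (difference -0.22, SE 0.06, adjusted p = 0.0171). Wars2, the mitochondrial tryptophanyl enzyme, had 6.51, 6.49, 6.52 and 6.61 in KO hearts, against 6.67, 6.70, 6.86 and 6.72 in WT hearts. Its difference was -0.20 (SE 0.06, adjusted p = 0.0239), with no overlap. The call for Wars2 was lost without KO replicate 1 (-0.20, adjusted p = 0.068), KO replicate 2 (-0.19, adjusted p = 0.0704), KO replicate 3 (-0.20, adjusted p = 0.0555) or WT replicate 3 (-0.16, adjusted p = 0.0614).

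The remaining 12 mitochondrial genes did not pass. Tars2 (threonyl) had 7.91, 7.999, 7.91 and 8.001 in KO hearts, against 8.08, 8.08, 8.10 and 8.05 in WT hearts, so its groups were separate although its adjusted p was 0.0859 (difference -0.12, SE 0.05). It passed with array weights (-0.14, adjusted p = 0.0382) and with a stricter filter on dim genes (-0.12, adjusted p = 0.0466). Aars2 (alanyl), known from infantile cardiomyopathy in humans, differed by -0.14 (SE 0.06, adjusted p = 0.134). Mars2, Hars2, Fars2 and Ears2 differed by -0.11, -0.10, -0.06 and -0.04. Iars2 (-0.01), Sars2 (0.01), Lars2 (0.04), Rars2 (0.05) and Yars2 (0.06) lay near 0, and Sars2 was at -0.01 after subtraction of array medians and Iars2 at 0.00 with array weights. Pars2 (prolyl) differed by 0.24, but it was variable (SE 0.11, SD 0.15 in KO and 0.21 in WT hearts), and its adjusted p was 0.136.

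The mitochondrial genes were then set against the cytosolic ones. Gars and Kars, which serve both compartments, were counted as cytosolic. The median difference was -0.08 over 16 mitochondrial genes and 0.05 over 18 cytosolic genes, beside -0.01 over all genes tested. The mitochondrial median was -0.044 without WT replicate 1 and -0.040 without WT replicate 2, and the cytosolic median was 0.025 after subtraction of each array's median. With each gene centred on its WT mean, the mitochondrial mean was -0.08, -0.06, -0.08 and -0.08 in KO hearts, against 0.02, 0.02, -0.04 and -0.01 in WT hearts. The cytosolic mean was 0.11, 0.13, 0.08 and 0.09 in KO hearts, against 0.00, 0.02, -0.01 and -0.01 in WT hearts. Mitochondrial minus cytosolic was therefore -0.19, -0.20, -0.16 and -0.17 in KO hearts and 0.02, 0.00, -0.02 and 0.00 in WT hearts. The groups did not overlap in any of these 3 measures. The last averaged -0.18 in KO hearts (SD 0.02, n = 4) against 0 by construction in WT hearts (SD 0.02, n = 4). The 7 cytosolic genes called higher and the 4 mitochondrial genes called lower enter these means, which restate those calls in part. For 8 cytosolic genes without a call, those not listed below as ATF4 targets, the mean overlapped between the groups. It ran from -0.04 to -0.01 in KO hearts and from -0.03 to 0.02 in WT hearts. How often the means of other gene lists separate was not tested. Tarsl2, the second threonyl enzyme outside mitochondria that fell (-0.55), is not on the list and entered none of these values. A difference within an array is not touched by a common shift of that array. No p-value was attached, since the genes were listed with earlier results of these data known.

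**Figure D3:**
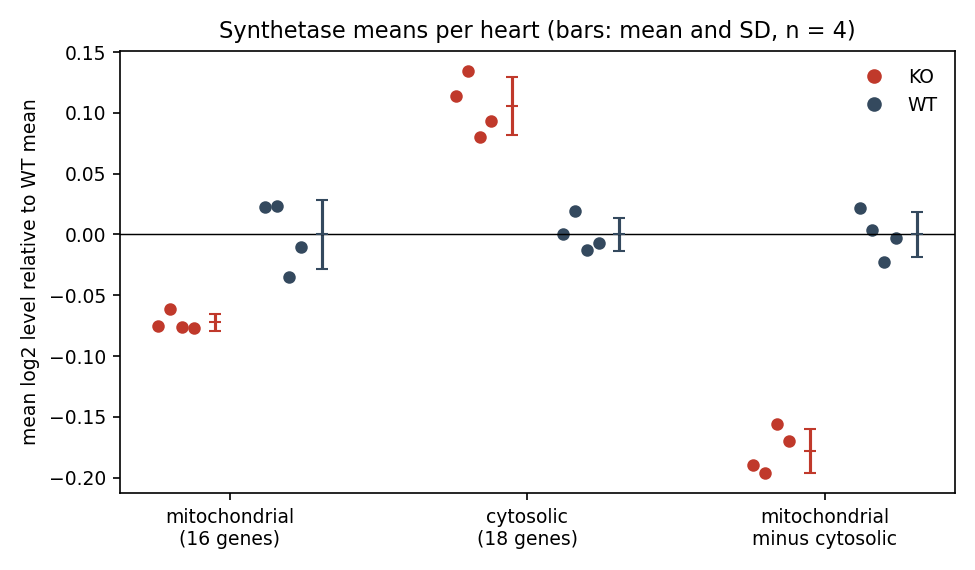
Mean log2 level relative to the WT mean in each heart for 16 mitochondrial and 18 cytosolic synthetase genes, and the difference of these means, KO left of WT, with the mean and SD of 4 hearts beside the points. KO hearts lie between -0.08 and -0.06 for mitochondrial genes, between 0.08 and 0.13 for cytosolic genes and between -0.20 and -0.16 for the difference.

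For 12 amino acids both the mitochondrial and the cytosolic gene were measured. The mitochondrial gene had the lower KO minus WT difference in 11 of 12 pairs, Lars2 and Lars being the other. For Tars2 and Tars, and for Rars2 and Rars, the gap was only -0.03. The 3 widest gaps were those of Cars2 and Cars (-0.26 and 0.42), Nars2 and Nars (-0.30 and 0.35) and Mars2 and Mars (-0.11 and 0.43). In Yars2 and Yars, Iars2 and Iars, and Sars2 and Sars the mitochondrial gene lay near 0 while the cytosolic one rose, which gave gaps of -0.22, -0.22 and -0.21. In these 6 pairs the mitochondrial minus cytosolic value of every KO heart was below that of every WT heart. The cytosolic gene of each of these 6 pairs was already called higher by itself, so the pairs restate those calls in part. Of all single genes, 28.6% were separate between the groups, and no share over all gene pairs was computed. The Cars2 minus Cars value, relative to the WT mean, was -0.66, -0.57, -0.70 and -0.81 in KO hearts, against 0.08, 0.12, 0.15 and -0.35 in WT hearts. The Nars2 minus Nars value was -0.70, -0.67, -0.52 and -0.73 in KO hearts, against -0.03, 0.13, -0.09 and -0.01 in WT hearts. For the other 6 pairs the hearts of both groups overlapped, with gaps from -0.14 (Vars2 and Vars) to 0.14 (Lars2 and Lars).

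**Figure D4:**
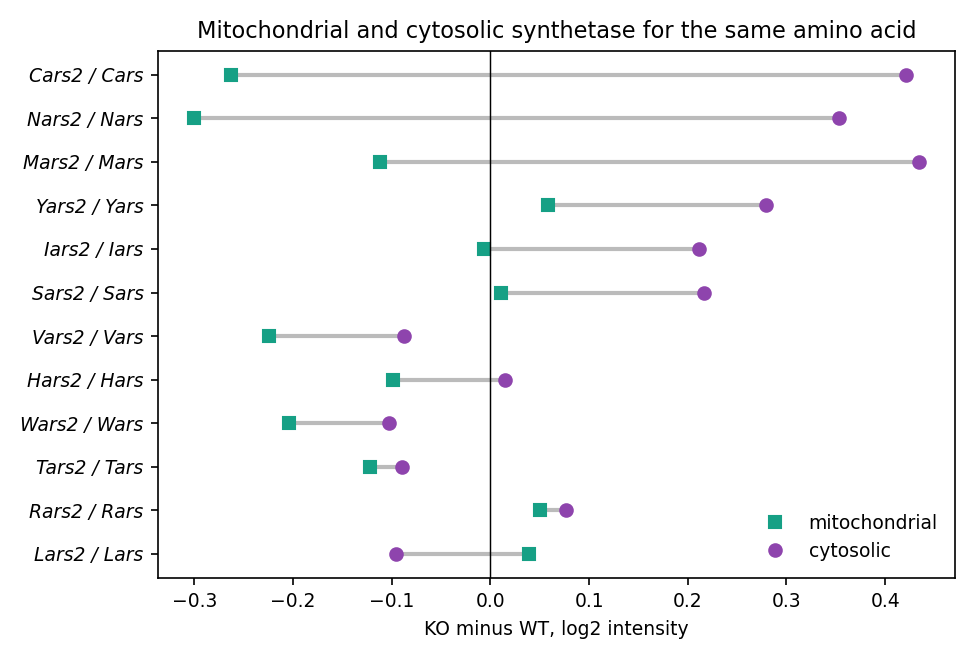
KO minus WT difference in log2 intensity of the mitochondrial (square) and cytosolic (circle) synthetase gene for 12 amino acids, ordered by the gap between them. The gap is widest for Cars2 and Cars at the top (-0.68), and it runs the other way for Lars2 and Lars at the bottom (0.14).

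Of 11 symbols listed here as ATF4 targets, 10 were measured and 7 rose, with a median of 0.25, the exceptions being Eprs, Tars and Wars. That is 70% higher, beside 10.8% of all genes. Of the 8 other measured cytosolic genes, outside that list and without Tarsl2, 0 rose and 0 fell in limma, also at an unadjusted p under 0.05. Their median was -0.03, and 24.6% of all genes were called in either direction. This list was drawn up with earlier results of these data known, and the difference between the 10 and the 8 was not tested. In the promoter windows, the core was found in 3 of the 5 risers that had one (Gars, Yars and Iars, not Mars1 and Sars), and in 1 of 6 cytosolic genes that did not pass, Tars. The Tars window printed above holds the letters TTGCATCA, as that of Iars does, while Tars had 6.41, 6.28, 6.26 and 6.34 in KO hearts and 6.37, 6.52, 6.36 and 6.39 in WT hearts.

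Of 18 class I genes 4 rose and 3 fell, which is 38.9% called, and of 15 class II genes 3 rose and 1 fell, which is 26.7%. The share over all genes was 24.6%, so that of class II lay near it. Eprs, which holds a domain of each class, was counted in neither. In the multi-tRNA synthetase complex, a cytosolic assembly of several of these enzymes, 2 of 7 measured synthetases rose (Mars and Iars). Counted in either direction this was 28.6%, near the 24.6% of all genes, and 10.8% of all genes were higher. Of the 3 scaffold genes of the complex, Aimp2 fell (-0.18, adjusted p = 0.0234). Aimp1 (-0.08, adjusted p = 0.301) and Eef1e1 (-0.03, adjusted p = 0.777) did not pass, and their KO and WT hearts overlapped. Aimp2 passed in 14 of its 17 alternatives and was lost without KO replicate 1 (adjusted p = 0.0703), KO replicate 3 (adjusted p = 0.0647) or WT replicate 4 (adjusted p = 0.0578).

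Of 17 measured genes that assist or edit tRNA charging, 7 fell and 0 rose (0 at an unadjusted p under 0.05, limma), with a median of -0.15, beside 13.9% of all genes lower. Tarsl2, a second threonyl enzyme that is found outside mitochondria, had the largest fall, to a mean of 7.09 in KO hearts against 7.63 in WT hearts (-0.55, SE 0.07, adjusted p = 0.000278). Aarsd1, which removes serine wrongly joined to the tRNA for alanine, fell as well (-0.37, SE 0.06, adjusted p = 0.00131). Qrsl1, a subunit of the mitochondrial amidotransferase that makes glutaminyl-tRNA, was also lower (-0.25, SE 0.05, adjusted p = 0.00558). The other subunits of that enzyme, Gatc (-0.04, adjusted p = 0.686) and Gatb (0.02, adjusted p = 0.882), did not pass. Sepsecs, of selenocysteine synthesis (-0.28), and the editing gene Prorsd1 (-0.16) also fell but passed in 10 and 7 of 17 alternatives. The count of 7 became 3 without KO replicate 1 or KO replicate 3, and 4 without KO replicate 4, WT replicate 2 or WT replicate 3.

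At the ribosome, charged tRNA is handled by elongation and initiation factors. Of 9 mitochondrial translation factors 3 fell and 0 rose (0 at an unadjusted p under 0.05, limma), with a median of 0.01. That is 33.3% lower, beside 13.9% of all genes. The elongation factor Tufm, which brings charged tRNA to the mitochondrial ribosome, fell (-0.24, SE 0.05, adjusted p = 0.00816). So did its partner Tsfm (-0.36, SE 0.08, adjusted p = 0.0102) and the initiation factor Mtif2 (-0.27, SE 0.08, adjusted p = 0.0294). With the mean over its clusters Tufm was past no threshold (-0.15, adjusted p = 0.0768), and Mtif2 passed in 11 of 17 alternatives. Of 5 cytosolic elongation genes 2 rose, or 40% beside 10.8% of all genes, and 0 fell (0 at an unadjusted p under 0.05). Eef1b2, a nucleotide exchange factor, rose by 0.31 (SE 0.05, adjusted p = 0.00158), and Eef1a1, which carries charged tRNA to the ribosome, by 0.25 (SE 0.07, adjusted p = 0.0253). Eef1a1 passed in 12 of 17 alternatives, and the count was 1 without KO replicate 1 or 2, or without WT replicate 1, 3 or 4.

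In the same hearts 6 of 13 kinases and factors of the integrated stress response rose and 0 fell (0 at an unadjusted p under 0.05, limma), with a median of 0.22. That is 46.2% higher, beside 10.8% of all genes. None of the kinases Eif2ak1, Eif2ak2, Eif2ak3 and Eif2ak4 passed (-0.03, 0.06, 0.06 and 0.04). Atf4 rose by 0.37 (SE 0.06, adjusted p = 0.00177) and Atf5 by 0.50, with the ATF4 partner Cebpg at 0.33. Ppp1r15a, which helps to end the response, rose by 0.38. Of 22 measured amino acid response targets other than synthetases, 9 rose, led by the folate enzyme gene Mthfd2 (1.85, SE 0.10), and 4 fell, with a median of 0.13. These are 40.9% higher and 18.2% lower, beside 10.8% and 13.9% of all genes. The targets that fell were Gpt2 (-0.52), Stc2 (-0.37), Slc7a1 (-0.25) and Shmt2 (-0.17). The rises of the synthetases, 0.21 to 0.43, were smaller than those of Mthfd2 and Asns. Ddit3 (0.03, adjusted p = 0.8) and Trib3 (0.01, adjusted p = 0.942) did not pass, while the target Chac1 rose by 0.60 (SE 0.12, adjusted p = 0.00363).

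**Figure D5:**
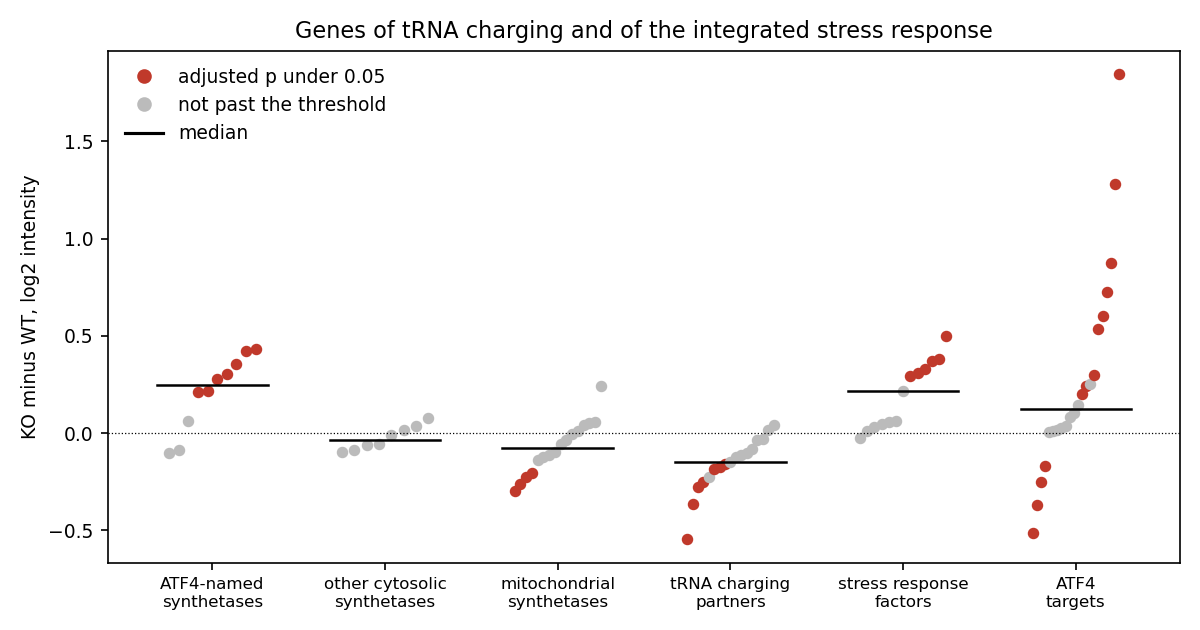
KO minus WT difference in log2 intensity of each measured gene in 6 lists, with a line at the list's median. The lists hold synthetases taken here as ATF4 targets, other cytosolic synthetases, mitochondrial synthetases, genes that assist charging, stress response factors and ATF4 targets. They were drawn up with earlier results of these data known. The medians are 0.25, -0.03, -0.08, -0.15, 0.22 and 0.13, and the targets spread most widely, from -0.52 to 1.85.

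Some lists of cell markers also differed between KO and WT hearts. Their counts are to be read beside the 10.8% of all genes called higher and 13.9% called lower. All 20 macrophage markers rose, with a median of 1.35 and a mean over markers of 1.10 to 1.32 in KO hearts against -0.10 to 0.13 in WT hearts. Of 10 cardiomyocyte markers 4 fell, with a median of -0.09 and a mean of -0.14 to -0.12 in KO hearts against -0.03 to 0.02 in WT hearts. In whole hearts, fewer cells of a type and less RNA per cell cannot be told apart, and the part of either marker group in the synthetase differences was not tested. Of 9 measured interferon-stimulated genes 6 rose and 0 fell (0 at an unadjusted p under 0.05, limma), with a median of 0.56. Wars, which interferon gamma induces in human cells, had 8.26, 8.33, 8.12 and 8.05 in KO hearts and 8.23, 8.46, 8.30 and 8.19 in WT hearts. Proliferation genes rose in 9 of 11 cases (median 0.39), fibroblast markers in 4 of 11 (median 0.23) and endothelial markers in 0 of 10 (median 0.02, 0 at an unadjusted p under 0.05 in limma). Of 5 measured lymphocyte markers 1 rose and of 12 immediate early genes 3 rose, with 0 lower in either list (0 at an unadjusted p under 0.05, limma). These are 20% and 25% of short lists, beside 24.6% of all genes called in either direction and 10.8% higher, and nothing is read from them.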

How the data were processed

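The submitters' processing notes name Partek and RMA without versions. The authors deposited 1 normalised intensity per transcript cluster for 27541 clusters on 8 arrays, on a linear scale as the values show. The genome build and probe annotation behind them are not stated. Scan dates were not analysed here, so a batch aligned with genotype cannot be told apart from it.

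Through the platform annotation 21631 clusters had 1 symbol, 1317 several and 4593 none. The brightest cluster per gene was kept (19933 genes), and genes whose mean lay below the 25th percentile (log2 4.498) were dropped, which left 14950. Log2 intensities of KO and WT arrays were compared with limma 3.58.1 in R 4.3.3 (lmFit, eBayes, two-sided, no covariate, 6 residual degrees of freedom), with Benjamini-Hochberg adjustment over all genes. The test was tried on simulated data first. All synthetases are named. Of each pathway list up to 6 genes past the threshold were eligible, of each marker list up to 3, and other genes were named after their values were seen. The members and lists were chosen with earlier results of these data known. Alternatives changed scaling, dim filter, offset, variance model, array weights or cluster handling, used the replicate number as a block, or left out single arrays. Figures were drawn with matplotlib 3.10.9.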

Additional observations from a re-analysis of the deposited data

Results flagged for a closer look

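In 11 of 166 sets of 4 hearts examined, 1 heart stood far from the other 3, with a gap to its neighbour, relative to the whole range, above Dixon's 95% critical value. Chance gives about 1 in 20. Among synthetases, Rars2 was 7.70 in KO replicate 4 against 7.84 in each of the others, and Qars was 8.69 in WT replicate 4 against 8.81 to 8.84. The mean of mitochondrial synthetases was -0.06 in KO replicate 2 and -0.08 in the other KO hearts. KO replicate 4 also stood apart for Hdac3 (8.50 against 8.59), Eef1b2 (9.78 against 9.67 to 9.68), Postn (9.67 against 10.13 to 10.21), Oas2 (7.95 against 8.37 to 8.44) and Usp18 (7.33 against 7.92 to 7.99). Among WT hearts, Tsfm was 7.73 in replicate 3 against 7.95 to 7.99, Nupr1 was 6.82 in replicate 4 against 6.58 to 6.61, and Lum was 8.59 in replicate 1 against 8.81 to 8.86.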

How the results depend on the processing

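Over 17 alternatives the count of listed cytosolic synthetases higher stayed at 7, with 0 lower, and 0 mitochondrial ones were higher, while 3 to 5 mitochondrial ones were lower. Every one of the 11 called synthetases kept its sign, and all but Wars2 kept the call. All genes changed numbered 2869 to 4529. The cytosolic median was 0.025 with array medians subtracted, and 0.033 to 0.061 when single arrays were left out. The mitochondrial median was -0.10 with array medians subtracted, -0.10 with the 50th percentile filter, -0.054 with array weights and -0.080 to -0.040 when single arrays were left out. Mitochondrial minus cytosolic was -0.20 with that filter, which drops the dim gene Pars2. Among synthetases near 0, Kars turned to 0.013 with quantile normalisation, Hars to -0.0078 and Sars2 to -0.011 with array medians subtracted, and, with array weights, Sars2 to -0.0038 and Iars2 to 0.0033. When single arrays were left out, Hars ran from -0.00034 to 0.039, Kars from -0.047 to 0.026, Iars2 from -0.032 to 0.022 and Sars2 from -0.013 to 0.041. The cause was not tested. With the replicate number as a block, 7 cytosolic synthetases were higher and 4 mitochondrial ones lower, as without it. The deviations of same-numbered hearts correlated at -0.038, 0.034, -0.038 and 0.076, and those of differently numbered hearts at -0.231 to 0.229. Paired hearts need not share a deviation over all genes, so these values cannot tell whether the numbers pair the hearts. With the block, Prorsd1 (-0.16, adjusted p = 0.0746), Mtif2 (-0.27, adjusted p = 0.056) and Myl2 (-0.20, adjusted p = 0.0572) lost their calls. The number of arrays limits what can be shown: the median SE of a synthetase difference was 0.06, so changes of that size are not resolved. Some larger differences were not called in the main fit either, such as -0.12 for Tars2, -0.14 for Aars2 and 0.24 for Pars2.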
